A study of Mus musculus with 2 samples.

Results

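The SLAM family is a set of receptors of the immunoglobulin superfamily on blood cells, and 9 of its genes, Slamf1, Slamf6, Slamf7, Slamf8, Slamf9, Cd84, Cd48, Cd244 and Ly9, are described here in the macrophage-like mouse line RAW264.7. The genes were chosen by family name after Cd84 had been seen to be far higher in the knockdown, and every probe whose gene name in the files is a member was taken. Of the 9 members 8 were measured, meaning that by the flag of the scanner software 1 or both arrays had the brightest probe well above background. They are set among 13772 measured genes of the 22801 named genes on the array. Because these arrays prompted the choice, the members' differences are a description and support nothing beyond themselves.

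The series compares control RAW264.7 cells with RAW264.7 cells in which Lamtor1 was knocked down by short hairpin RNA, with 1 array of each, to look at the activity of the transcription factor TFEB in cells without Ragulator. Lamtor1 anchors Ragulator, which holds the Rag GTPases and through them the kinase complex mTORC1 on the lysosome. The labels give both samples the same treatment, a lentiviral mixture of 2 vectors against Lamtor1 followed by limiting dilution. The sources used here do not say what vector, if any, went into the control cells, nor if the dilution left 1 clone in either sample. With 1 array per group there is no replicate check, no test was possible, and every difference describes these 2 arrays only.

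SLAM family receptors bind ligands on neighbouring cells, most of them by pairing with a copy of themselves, while Cd244 binds Cd48. The tails of Slamf1, Slamf6, Slamf7, Cd84, Cd244 and Ly9 carry the immunoreceptor tyrosine-based switch motif, which recruits the small adaptors SAP and EAT-2, Src family kinases or phosphatases. Cd48 has a lipid anchor in place of a tail, and Slamf8 and Slamf9 have short tails without the motif. In macrophages, family members are known for roles in phagocytosis, phagosome maturation and contact with other blood cells.

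All member probes lay on chromosome 1, within 996.7 kb. The 14 probes are 60 bases long, with 2 probes for each of 5 genes and 1 for each of the other 4. The sequences of 2 probes are shown whole because they run through codons that spell the switch motif, marked in capitals, in a reading frame without a stop. They are the probe of Ly9 at chr1:173523555-173523614 on the minus strand and the probe of Slamf6 at chr1:173871767-173871826 on the plus strand, both in mm9, the build of the files. Of all 39429 probes, 120 (0.304%) hold such codons.
Ly9 A_55_P1989976: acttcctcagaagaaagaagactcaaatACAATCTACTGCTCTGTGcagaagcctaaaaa
Slamf6 A_55_P2182467: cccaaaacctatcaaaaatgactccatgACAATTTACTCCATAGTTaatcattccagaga

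The 2 probes of Cd84 gave differences of unequal size, so the first 30 bases of each are given to tell them apart. Both lie on the plus strand, at chr1:173816502-173816561 and chr1:173817856-173817915 in mm9. Which exon or untranslated region each probe covers was not determined here.
Cd84 A_55_P2054445: ccaacatgaaggacagaagtctgcctaagg
Cd84 A_66_P122377: ctaataggcagcaaagcataagcaggtctc

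Promoter sequence from RefSeq, build GRCm38.p6, was matched by symbol for 8 of the 9 members, all but Ly9. The stretches of Cd84, Slamf7, Slamf8 and Slamf9 are shown from 250 bases before the gene's start to 30 after it, because these 4 genes were among those higher in the knockdown. They lie at chr1:171839447-171839726 on the plus strand for Cd84, chr1:171648970-171649249 on the minus strand for Slamf7, chr1:172590539-172590818 on the minus strand for Slamf8 and chr1:172475110-172475389 on the plus strand for Slamf9. Capitals mark TGANTCA, the site of AP-1 factors, and CACGTG, the E-box that TFEB and its relatives bind, searched on both strands.
Cd84 promoter: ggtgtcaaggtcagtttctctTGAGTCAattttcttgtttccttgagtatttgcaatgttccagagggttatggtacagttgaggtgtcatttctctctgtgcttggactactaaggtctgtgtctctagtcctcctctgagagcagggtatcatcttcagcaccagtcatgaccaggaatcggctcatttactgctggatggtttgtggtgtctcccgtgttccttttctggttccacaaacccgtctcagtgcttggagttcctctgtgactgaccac
Slamf7 promoter: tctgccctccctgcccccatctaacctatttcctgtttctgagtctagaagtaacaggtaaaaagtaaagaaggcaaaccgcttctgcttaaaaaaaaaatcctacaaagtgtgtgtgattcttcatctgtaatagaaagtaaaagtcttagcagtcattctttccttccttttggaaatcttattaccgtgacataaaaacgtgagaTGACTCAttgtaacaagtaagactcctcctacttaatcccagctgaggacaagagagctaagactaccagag
Slamf8 promoter: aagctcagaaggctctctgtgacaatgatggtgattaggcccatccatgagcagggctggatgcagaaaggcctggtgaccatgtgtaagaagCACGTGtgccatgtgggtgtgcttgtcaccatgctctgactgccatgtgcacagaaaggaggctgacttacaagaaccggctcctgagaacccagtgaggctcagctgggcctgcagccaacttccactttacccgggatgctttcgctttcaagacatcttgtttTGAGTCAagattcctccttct
Slamf9 promoter: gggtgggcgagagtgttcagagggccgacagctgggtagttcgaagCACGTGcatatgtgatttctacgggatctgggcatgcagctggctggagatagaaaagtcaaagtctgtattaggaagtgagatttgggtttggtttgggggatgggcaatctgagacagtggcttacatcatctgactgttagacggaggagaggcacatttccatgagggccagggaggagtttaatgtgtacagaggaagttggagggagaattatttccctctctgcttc

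Over windows of 300 bases that reach 50 bases into the gene, TGANTCA was found in 4 of the 8 member promoters, those of Cd84, Slamf7, Slamf8 and Cd244. It occurs in 7.81% of 32851 promoters of that length. The E-box was found in 3, those of Slamf8, Slamf9 and Cd244, and in 7.15% of all promoters. GAGGAA, the core bound by the macrophage factor PU.1, was found in 4, those of Cd84, Slamf8, Slamf9 and Cd244, and in 28.3% of all. An ISRE-like element, of the kind bound by interferon regulatory factors, was found in that of Slamf8 and in 3.44% of all. None of these matches overlapped another in the member promoters. The matches are letters in a window and not measured binding. Both Cd244, which was slightly lower in the knockdown, and genes that were higher held TGANTCA and the E-box, while the windows of Slamf1, Slamf6 and Cd48 held none of these 4 sequences.

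Levels are log2 signals with the array's own 75th percentile set to 0, and differences are knockdown minus control. Levels of different probes are not set against each other, because probes differ in how strongly they bind. The exceptions are 1 selection of genes and the summed levels of marker lists. Of the 14 member probes, 7 were well above background in the control and 12 in the knockdown. Where only 1 array had a probe well above background, the fold is given as at least a value, the bright signal over the higher of the dim signal and the lowest one that the dim array had well above background. That lowest signal was 18.7 for the control and 20.2 for the knockdown, at levels of -5.97 and -5.96. Such a value holds for the processed signals only, and where the dim signal is the higher one it is the plain fold. Other treatments of the background gave smaller folds for Cd84, Slamf7 and Slamf8. Both arrays share a slide, per the file headers. Lamtor1 itself had a level of 4.10 in the control and -0.43 in the knockdown, 23.1-fold lower.

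Of the 8 measured members 5 were higher in the knockdown by at least 2-fold, Cd84, Slamf7, Slamf8, Slamf9 and Ly9. Across all measured genes 9.00% were at least 2-fold higher, and nothing is read from the comparison of these shares, because Cd84's difference led to the choice of the family. Cd48 was the 1 member at least 2-fold lower, against 8.35% of all measured genes, and 17.4% of them were past 2-fold in either direction. Slamf6 and Cd244 stayed within 2-fold, and Slamf1 was not well above background on either array. Of the members past the threshold, Ly9 at a log2 difference of 1.64 and Cd48 at -1.40 lay nearest to it. Slamf6 at 0.42 and Cd244 at -0.31 fell short of it. The counts stayed at 5 and 1 when the 3 members above background on the knockdown array only were counted by their bound.

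**Figure D1:**
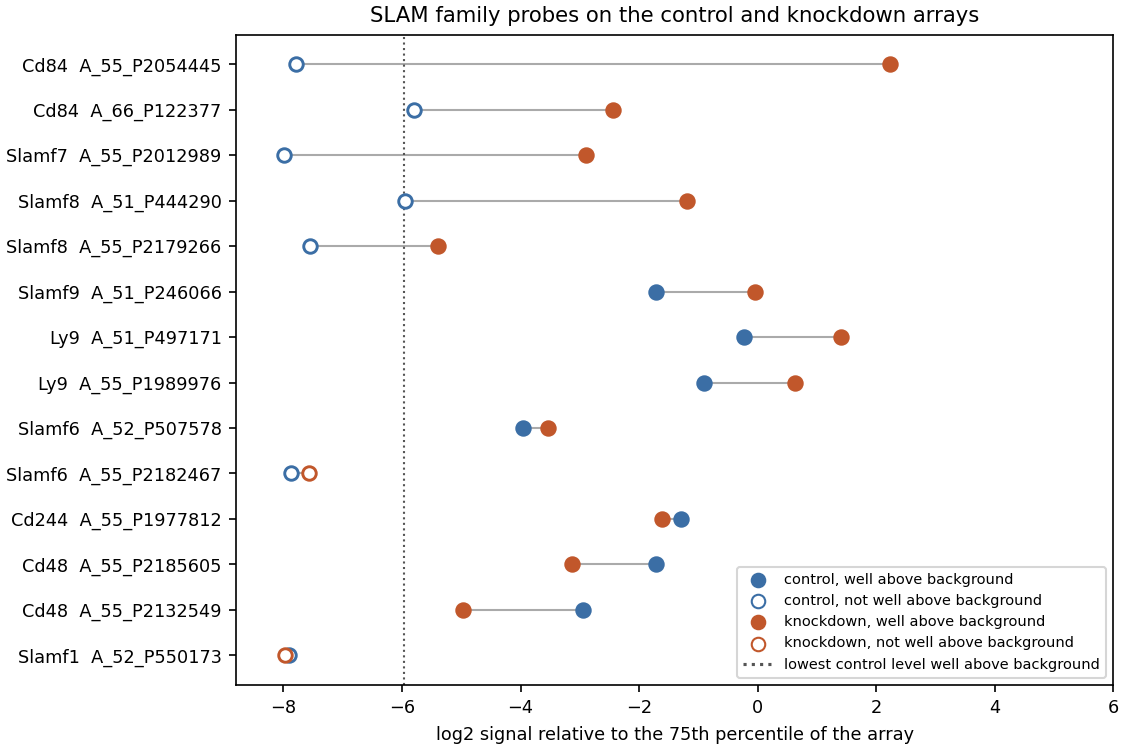
Level of each SLAM family probe on the control array (blue) and the knockdown array (orange), as log2 signal relative to the array's 75th percentile, with 1 line per probe. Open points were not well above background and the dotted line is the lowest control level well above background. Both Cd84 probes, both Slamf8 probes and the Slamf7 probe are open on the control side and filled on the knockdown side.

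Cd84, a receptor that pairs with itself and is found on platelets, lymphocytes and myeloid cells, was well above background in the knockdown by both of its probes and in the control by neither. The brighter probe, A_55_P2054445, had a level of -7.79 in the control and 2.23 in the knockdown, with processed signals of 5.28 and 5880. By the processed signals it was at least 293.7-fold higher in the knockdown, a log2 bound of 8.20. The other probe, A_66_P122377, had levels of -5.79 and -2.45, from signals of 21.2 and 230.5, and was at least 10.2-fold higher. Both probes thus gave the same direction with bounds that differ in size, and the cause of the gap between them was not tested.

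The size of the Cd84 difference depended on how the dim control signal was treated. The mean signals before any background correction were 58.0 in the control and 5086 in the knockdown for the brighter probe, which is 82.6-fold after scaling. With normexp, a model-based background correction that shrinks differences of dim probes, the same probe was 74.0-fold higher. For the other probe the uncorrected mean signals were 76.2 and 263, and the folds were 3.26 without correction and 3.04 with normexp.

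**Figure D2:**
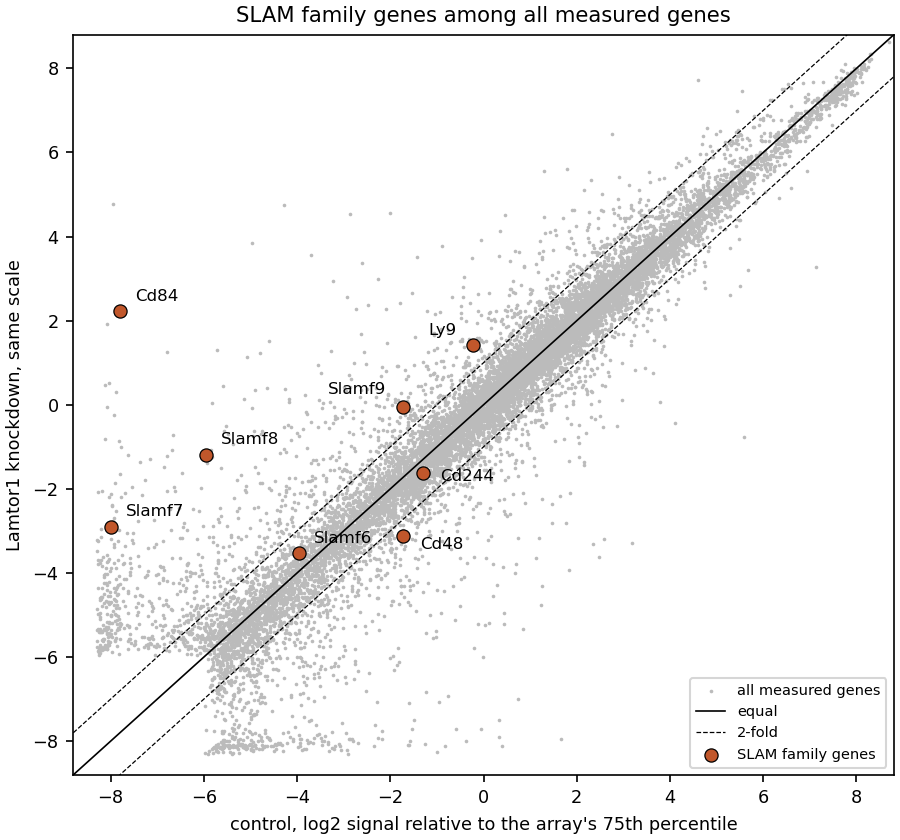
Level of each measured gene in the control (horizontal) and the Lamtor1 knockdown (vertical), both as log2 signal relative to the array's 75th percentile, with 1 grey point per gene by its brightest probe. Solid and dashed lines mark equal levels and 2-fold, and the 8 measured SLAM family genes are orange. Cd84 sits at -7.79 and 2.23, far above the line of equal levels, while Cd48 is the member below the lower dashed line.

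The 5 genes with the smallest Euclidean distance between their pair of levels and that of the brightest Cd84 probe were Plpp3, a lipid phosphatase gene, Klra8, a gene of the Ly49 receptors of NK cells, the transcription factor gene Sp8, the tetraspanin gene Tspan7 and Cpeb1, an RNA-binding protein gene. All 5, like Cd84, were above background on the knockdown array only. The distance sets levels of different probes side by side over 2 arrays, with control signals not above background, so it only picks the genes and gives them no order. They were higher by at least 238.6-fold for Plpp3, 150.7-fold for Klra8, 89.9-fold for Sp8, 87.5-fold for Tspan7 and 76.9-fold for Cpeb1. These values hold for the processed signals only. Folds of the 5 genes with normexp or without background correction are not given, and those of Cd84 were smaller than its bound. Klra8 belongs to a family of closely related genes, and which of them its probe binds was not tested.

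Slamf7, also known as CRACC, a receptor of NK cells, plasma cells and activated macrophages that pairs with itself, has a single probe, A_55_P2012989, at chr1:173562534-173562593 on the minus strand in mm9. Its level was -7.99 in the control, not well above background, and -2.90 in the knockdown, from processed signals of 4.62 and 168. It was at least 8.41-fold higher. The fold was 3.79 with normexp and 4.11 without background correction, where the mean signals were 50.7 and 221.

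Slamf8, a member with a short tail that is known as a brake on the oxidative burst of macrophages, was likewise above background in the knockdown only by both of its probes. Probe A_51_P444290 had a level of -5.95 in the control and -1.19 in the knockdown, from signals of 18.9 and 551, and was at least 27.2-fold higher. With normexp it was 6.92-fold and without correction 7.33-fold higher. Probe A_55_P2179266, which the files tie to a predicted transcript, had levels of -7.55 and -5.39 and was at least 1.49-fold higher. Its normexp fold was 1.20, so this probe lay past 2-fold neither by its bound nor with normexp.

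Slamf9, a member with a short tail found on macrophages and dendritic cells, was well above background on both arrays. Its probe A_51_P246066 had a level of -1.72 in the control and -0.05 in the knockdown, from signals of 355 and 1214. The log2 difference was 1.67, or 3.19-fold higher, and 2.87-fold with normexp.

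Ly9, a receptor with the switch motif that pairs with itself and is also known as CD229, was well above background on both arrays by both probes. Probe A_51_P497171 had a level of -0.23 in the control and 1.41 in the knockdown, from signals of 1002 and 3346, and was 3.12-fold higher. Probe A_55_P1989976, which spans the switch motif codons shown above, had levels of -0.91 and 0.63 and was 2.90-fold higher. The 2 probes differed little, with log2 differences of 1.64 and 1.54, and normexp gave 3.02-fold and 2.74-fold. Unlike Cd84, Slamf7 and Slamf8, the folds of Ly9 and Slamf9 rest on measured signals on both sides.

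Cd48, the lipid-anchored ligand of Cd244, was lower in the knockdown by both probes and well above background on both arrays. Probe A_55_P2185605 had a level of -1.72 in the control and -3.13 in the knockdown, from signals of 355 and 144, and was 2.65-fold lower. Probe A_55_P2132549 had levels of -2.95 and -4.96, from signals of 151 and 40.2, and was 4.03-fold lower. With normexp the 2 probes were 2.16-fold and 2.38-fold lower.

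Cd244, the receptor of Cd48 also known as 2B4, differed less. Its probe A_55_P1977812 had a level of -1.30 in the control and -1.61 in the knockdown, from signals of 477 and 411, and was 1.24-fold lower. A probe outside the choice of members, A_55_P2139216, is annotated in the files as a predicted transcript similar to a splice form of 2B4. It was picked out after its values were seen, and had levels of -7.91 and -4.87, above background in the knockdown only and at least 2.14-fold higher. The receptor and its ligand thus both had lower levels in the knockdown by the probes that carry their names, with a log2 difference of -0.31 for Cd244 and -1.40 for Cd48.

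Slamf6, a receptor with the switch motif that pairs with itself, was above background on both arrays by 1 of its 2 probes. Probe A_52_P507578 had a level of -3.96 in the control and -3.53 in the knockdown, from signals of 75.5 and 108.5, and was 1.34-fold higher, or 1.16-fold with normexp. Probe A_55_P2182467, which spans the switch motif codons shown above, was not well above background on either array, with levels of -7.87 and -7.57. Slamf1, the receptor that gave the family its name, was not well above background on either array, with levels of -7.91 and -7.98 and uncorrected mean signals of 52.0 and 52.9. No fold is given for these 2 probes.

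The error that can be seen on the arrays is that of repeated spots. Among probes with at least 3 spots that both arrays measured above background, log2 differences of single spots had a median SD of 0.143 at mean levels under -3 (27 probes) and 0.0546 at levels from -3 to 0 (67 probes). The 95th percentiles of these SDs were 0.231 and 0.152. The Cd244 difference of -0.31 and the Slamf6 difference of 0.42 were larger than the percentile at their level. That is a percentile of SDs, so being past it does not place a difference outside the spread of spots. No such SDs are given for normexp, where the Slamf6 difference was 0.21. In either case the spread between cultures, which such spots do not hold, is unknown. In RNA from a whole culture, a change in the share of cells that carry a transcript and a change in transcript per cell cannot be told apart.

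**Figure D3:**
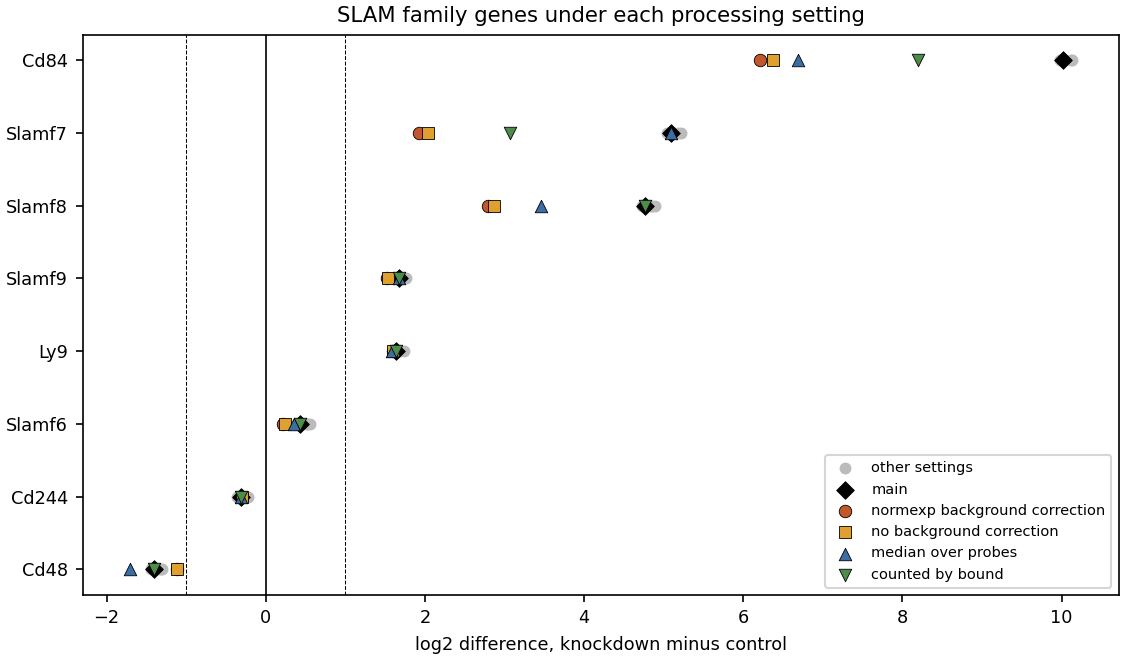
Log2 difference of each measured SLAM family gene, knockdown minus control, under the reported setting (diamonds) and the 12 alternatives to it, with dashed lines at 2-fold. Every gene kept its direction. The values of Cd84, Slamf7 and Slamf8 ran from 6.21 to 10.13, 1.92 to 5.21 and 2.79 to 4.89. Those of Cd48 ran from -1.71 to -1.11 and those of Slamf6 from 0.21 to 0.55, while those of Slamf9, Ly9 and Cd244 lay closer together.

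In order along the chromosome in mm9, the members form a run from Cd244 through Ly9, Slamf7, Cd48, Slamf1 and Cd84 to Slamf6, with no other measured named gene between them, and Slamf9 and Slamf8 lie farther on. Relative to the Cd84 probes, the Cd244 probe lies at -301 kb and the Slamf6, Slamf9 and Slamf8 probes at 56.2 kb, 592 kb and 695 kb. The direction was not shared along this run, since Cd48, which was lower, lies between Slamf7 and Cd84, which were higher. In a window from 500 kb before the first to 500 kb after the last member probe, 40 named genes were measured. The array-wide shares past 2-fold are 9.00% in the higher and 8.35% in the lower direction, and nothing is read from this comparison. Apart from the members, 5 of 32 genes in the window passed 2-fold in the higher and 2 in the lower direction. The median of these 32 was 0.08 against -0.05 over all genes. With normexp those counts were 2 and 1, and counted by bound 4 and 2. The 32 differences ran from -4.79 to 1.77.

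Near the members, F11r, which encodes a junctional adhesion molecule, had a level of -2.29 in the control and of -7.08 in the knockdown, where it did not pass the background flag. It was at least 12.7-fold lower, and 4.60-fold with normexp. Pea15a, which encodes a phosphoprotein that binds ERK kinases, was 2.80-fold higher, and Igsf9, an immunoglobulin superfamily gene beside Slamf9, was 2.25-fold higher, though its log2 difference was 0.57 in the lowest of the alternatives. Dusp23, a phosphatase gene beyond Slamf8, was 3.40-fold higher and Tstd1 2.87-fold lower, and with normexp these were 1.62-fold and 1.85-fold. Nhlh1 was 2.43-fold higher (1.60-fold with normexp). Kcnj9, a potassium channel gene above background in the knockdown only, was at least 1.37-fold higher by the processed signals but 1.19-fold with normexp.

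**Figure D4:**
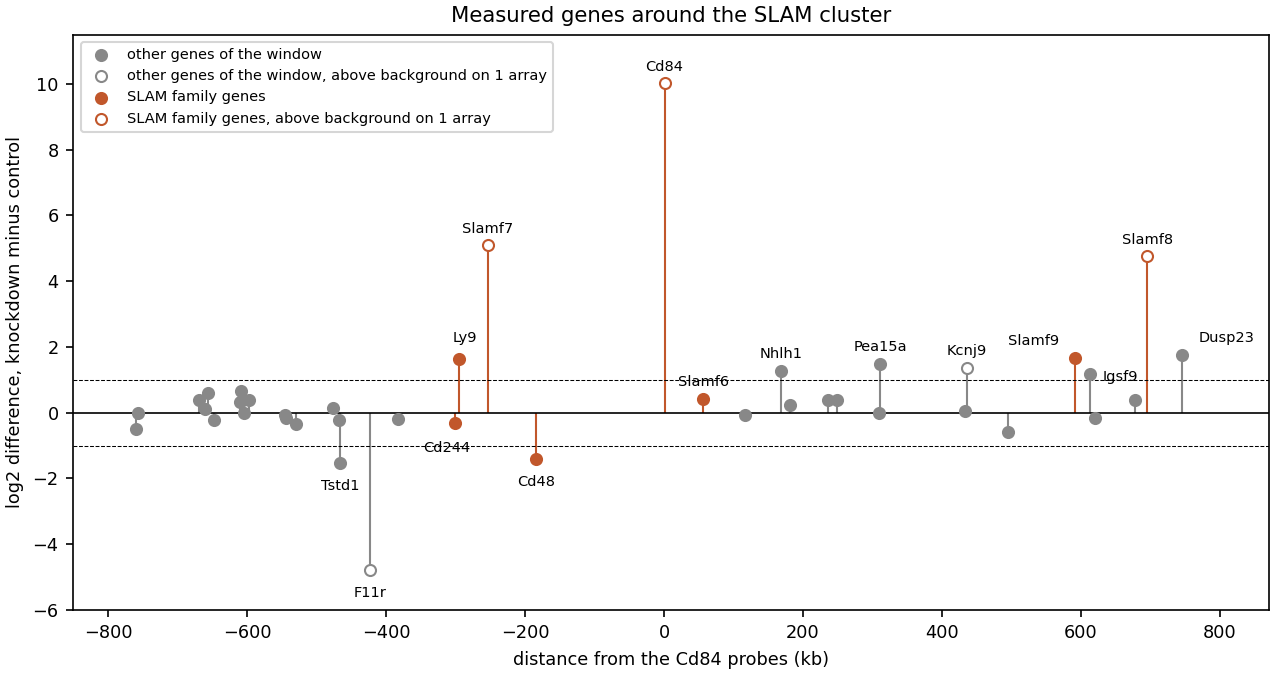
Log2 difference, knockdown minus control, of each measured named gene around the SLAM cluster against its distance from the Cd84 probes in kb, with SLAM family genes in orange and other genes in grey. Open points were above background on 1 array only and dashed lines mark 2-fold. Cd84 stands at 10.02 at the centre, and genes on either side of the members lie mostly between the dashed lines.

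The proteins through which the switch motif acts were described from a list of 43 genes in 5 groups. Beside the counts of each group stand 9.00% of all measured genes at least 2-fold higher and 8.35% lower, by the plain difference. The adaptor genes Sh2d1a (SAP), Sh2d1b1 (EAT-2) and Sh2d1b2 (ERT) were not well above background on either array. Sh2d1a had levels of -8.24 in the control and -8.25 in the knockdown, Sh2d1b1 of -8.28 and -8.27 and Sh2d1b2 of -8.30 and -8.29. Transcripts of the adaptors were therefore not detectable on either array with these probes.

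Among the Src family kinases and their regulator Csk, 7 of 9 genes were measured, 1 past 2-fold in the higher direction by its plain difference, 0 by its bound, and 2 in the lower by either. Fgr, a kinase of myeloid cells, had a level of 0.52 in the control and -0.76 in the knockdown and was 2.42-fold lower. Src was above background in the knockdown only, from -8.30 to -5.36, at least 1.52-fold higher and 1.46-fold with normexp. Of the 4 phosphatase genes none reached 2-fold in either direction. Ptpn6, the gene of SHP-1, had levels of 4.64 and 3.69 and was 1.93-fold lower, and Inppl1 (SHIP-2) and Inpp5d (SHIP-1) had log2 differences of -0.36 and -0.16.

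Of the proteins that act further downstream, 16 of 17 genes were measured, with 4 at least 2-fold higher by the plain difference, 3 by bound, and 2 lower by either. Cblb, a ubiquitin ligase gene, was 6.73-fold higher by its brightest probe, from -2.95 to -0.19, and 5.12-fold with normexp. Its 2 probes above background had log2 differences of 2.75 and 2.11. Vav3, which encodes an exchange factor for small GTPases, was 2.53-fold higher. Nck2, an adaptor gene, was above background in the control only, from -4.94 to -8.21, and at least 2.02-fold lower, but 1.79-fold with normexp. Named here after their values were seen, Nck1 was 2.07-fold higher and Dok2 2.29-fold lower. Vav2, above background in the knockdown only, passed 2-fold by its plain difference but was at least 1.86-fold higher by its bound and 1.16-fold with normexp.

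Phagosome proteins that SLAM receptors are known to work with, the NADPH oxidase and the Beclin 1 complex, had all 10 genes measured, none at least 2-fold higher and 1 lower. Cybb, the catalytic subunit of the oxidase, had levels of 2.19 in the control and 0.58 in the knockdown and was 3.05-fold lower. Its partner subunit gene Cyba had a log2 difference of 0.79 and Ncf1, a cytosolic subunit gene, of -0.74. Over the whole list 5 of 37 measured genes were higher, 5 were lower and 27 stayed within 2-fold. The shares over all measured genes were 9.00% higher and 8.35% lower, and nothing is read from the counts. The median was -0.05, as over all measured genes, and median scaling put it at 0.042 and cyclic loess at 0.0030, so it has no settled direction. With normexp 3 genes were higher and 4 lower, and counted by bound 3 and 5.

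**Figure D5:**
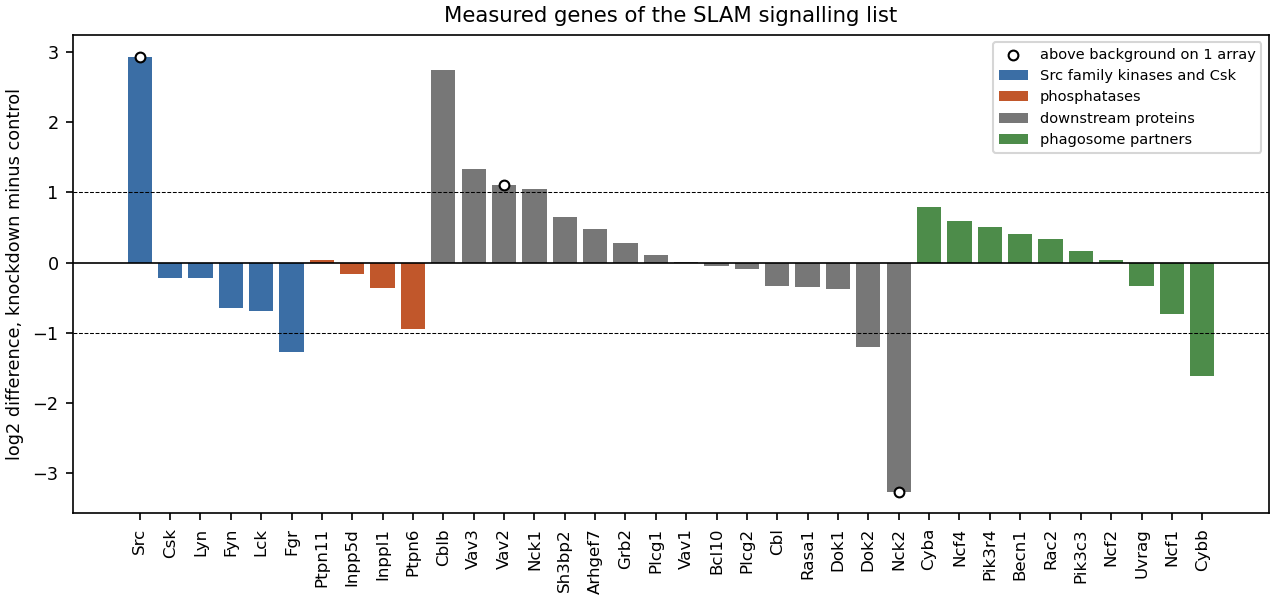
Log2 difference, knockdown minus control, of the named measured genes of the SLAM signalling list, in bars grouped by role, with dashed lines at 2-fold and open circles on genes above background on 1 array only. In all 27 bars end between the dashed lines, and Fgr, Dok2, Nck2 and Cybb end below the lower one.

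SLAM family genes are also markers of other blood cells, so marker lists of those cells are given beside them. A summed level adds the signals of all markers of a list, above background or not, so the brightest probes weigh most. All 9 macrophage markers were above background on both arrays, and their summed level was 8.30 in the control and 7.77 in the knockdown. Among them Cd68 was 2.33-fold higher, Mrc1 2.31-fold higher (1.69-fold with normexp) and the macrophage surface gene Adgre1 2.95-fold lower. For B cells 1 of 5 markers, Cd79b, was above background in the control and 0 in the knockdown, with summed levels of -3.98 and -4.84. For T cells it was 3 of 7 on each array, with summed levels of 1.25 and 1.22, and Cd2, another receptor of Cd48, was on neither array. For NK cells 1 of 5, Prf1, was above background on both arrays by the brightest probe, with summed levels of -1.86 and -2.39. Another probe of the NK marker Klrb1c, A_55_P1979147, was above background in the knockdown only, from -7.92 to -5.47, and at least 1.41-fold higher (1.45-fold with normexp). For mast cells 1 of 5, Tpsb2, was, with -4.11 and -4.38, and for dendritic cells 3 of 5 were, with 5.53 and 5.39.

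Platelets and their precursors are known for high Cd84. Of their 5 markers 2 were above background in the control and 3 in the knockdown, and the summed level was -0.44 and -3.30. Pf4, platelet factor 4, had levels of -0.51 in the control and -4.79 in the knockdown and was 19.4-fold lower, but 9.10-fold with normexp. Gp9 was above background in the knockdown only, at least 1.64-fold higher by the processed signals but 1.28-fold with normexp. The defining gene Itga2b was not well above background on either array. The part of other cell types in the differences of the SLAM family was not tested.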

How the data were processed

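Total RNA of 1 control and 1 Lamtor1 knockdown sample of RAW264.7 cells was labelled with Cy3 and hybridised to 1 array each, per the labels. The deposited files give the processed intensity of each spot, as Agilent Feature Extraction 10.7.3.1 wrote it (per the submitters' processing notes), with flags for background and outliers. The deposited value table holds the same intensity rounded. Each array had 43020 spots, of which 53.3% (control) and 52.9% (knockdown) were well above background.

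Outlier spots were left out. Each array's 75th percentile was subtracted from the log2 intensity, and repeated spots were averaged. A gene took its brightest probe. With normexp (offset 50, limma 3.58.1 in R 4.3.3) and 11 other alternatives the values were recomputed. Probes were named through RefSeq genes of GRCm38.p6, used for names only, and members by the files' gene names. The number of arrays limits the precision, and no p-value was computed. The calculation was tested on simulated data. All genes shifted there were above background on both arrays, unlike Cd84, Slamf7 and Slamf8.

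The members and lists were chosen with earlier results of these data known. Genes named are every member, Lamtor1, the adaptors, up to 3 genes with the largest differences in each other signalling group, locus genes past 2-fold and the 5 nearest to Cd84. Of these, 1 gene of the signalling list is not reported here by name or in the plot, but is in the counts. Markers are named by their lists.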

Additional observations from a re-analysis of the deposited data

How the results depend on the processing

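The values were recomputed under 12 alternatives, and no member changed direction in any that gave it a value. Cd84, reported as a plain log2 difference of 10.02, was 6.21 with normexp, 6.37 with no background correction, 6.68 as the median over probes, 8.20 by its bound, 10.11 after median scaling and 10.13 with cyclic loess. Genes at least 2-fold higher and lower across the array, 1240 and 1150, were 789 and 613 with normexp and 816 and 650 with no background correction, and 1760 were lower without a filter on dim probes. Restricted to genes above background on both arrays they were 793 and 693, the members at least 2-fold higher were 2 and the locus genes past 2-fold 8, because Cd84, Slamf7 and Slamf8, and F11r and Kcnj9 among the locus genes, then have no value. The count of higher members stayed at 5 in the other alternatives, and that of lower members at 1 in all 12. With median scaling the signalling list had a median of 0.042, and with cyclic loess of 0.0030. The median of all genes ran from -0.09 to 0.04. Other causes were not tested. The depth of a signal limits Cd84, Slamf7 and Slamf8 to bounds, which hold for the processed signals only. No paired analysis was possible because each group has 1 array, and for the same reason no replicate could be left out.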
